A study of Mus musculus with 18 samples.

Results

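The experiment described here asked how mouse embryonic fibroblasts (MEFs) that were not given interleukin-17 (IL-17) changed when the RNA-binding protein IMP2, the product of Igf2bp2, was depleted with an siRNA. Its members are 6 of the 18 samples of the series: the 3 RNA-seq libraries with the treatment label Imp2 siRNA and the 3 with the treatment label Mock. All 6 came from C57BL/6 MEFs that were transfected, given fresh medium after 24 h and then left unstimulated while parallel dishes received IL-17 at 200 ng/mL for 8 h. The study's design text names a control siRNA for the cells that the labels call Mock, so Mock is read here as the control transfection. The siRNA sequences are not known here, and an effect of an siRNA on other mRNAs cannot be told apart from the loss of IMP2. In each group 1 library has a title with the prefix RB160 (replicate 1) and 2 have the prefix NA (replicates 2 and 3). The meaning of the prefix is not stated in the labels, and nothing says that the libraries came from separate cultures. The p-values below therefore measure only the spread between these libraries, which may be technical.

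IMP2 belongs to a family of proteins with RRM and KH domains that bind mRNA in the cytoplasm and affect its stability, localization and translation. The family recognizes transcripts that carry N6-methyladenosine (m6A), a methyl mark written by a complex around METTL3, and is therefore counted among the m6A readers. Fibroblasts make and remodel the extracellular matrix, and under tension or growth factor signals they can switch on actin, myosin and calponin genes through the serum response factor SRF with its MRTF cofactors, which bind the CArG box, and through YAP and TAZ with TEAD factors. They also answer inflammatory cytokines, IL-17 among them, with chemokines and acute phase proteins through NF-kB, which binds kappa B sites, and through C/EBP factors.

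Promoter sequences are shown for 9 genes of these groups, because the factors named above act through short motifs in such windows. Each of the 9 holds a motif that was searched. Genes of the same groups with larger changes than some of the 9, such as Myh11, Ccn2 and Ppbp, are not shown. Each line gives the 150 bases before the RefSeq start site on the GRCm38.p6 build, read 5′ to 3′ on the gene's strand. Capitals mark a CArG box in Acta1 and Myom1, the TEAD motif GGAATG or its reverse CATTCC in Acta1, Nppb, Acta2, Ankrd1 and Ccn1, a kappa B motif in Cxcl1 and Il6, and the C/EBP motif TTGCNNAA in either orientation in Il6 and C3. Myom1 also holds a kappa B match 144 bases before its start, which is left in lower case.
Acta1 (chr8:123894776-123894925, minus strand): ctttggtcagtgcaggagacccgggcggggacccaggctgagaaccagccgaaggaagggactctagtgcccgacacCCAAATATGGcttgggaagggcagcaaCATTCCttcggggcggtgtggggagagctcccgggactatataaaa
Myom1 (chr17:71019407-71019556, plus strand): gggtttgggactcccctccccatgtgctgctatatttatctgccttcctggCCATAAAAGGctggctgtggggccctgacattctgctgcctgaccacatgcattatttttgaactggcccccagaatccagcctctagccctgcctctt
Nppb (chr4:147985750-147985899, plus strand): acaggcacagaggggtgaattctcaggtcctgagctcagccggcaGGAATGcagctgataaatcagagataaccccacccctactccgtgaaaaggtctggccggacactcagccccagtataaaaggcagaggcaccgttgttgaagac
Acta2 (chr19:34255374-34255523, minus strand): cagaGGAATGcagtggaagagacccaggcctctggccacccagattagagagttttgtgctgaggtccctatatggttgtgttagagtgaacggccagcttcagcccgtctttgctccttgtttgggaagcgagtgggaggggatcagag
Ankrd1 (chr19:36119845-36119994, minus strand): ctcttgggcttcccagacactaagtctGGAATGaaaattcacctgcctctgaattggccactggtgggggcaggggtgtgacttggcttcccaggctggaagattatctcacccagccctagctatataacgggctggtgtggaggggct
Ccn1 (chr3:145649986-145650135, minus strand): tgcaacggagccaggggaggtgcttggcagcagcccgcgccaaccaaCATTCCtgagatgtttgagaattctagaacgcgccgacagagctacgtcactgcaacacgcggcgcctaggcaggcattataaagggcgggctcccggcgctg
Cxcl1 (chr5:90891095-90891244, plus strand): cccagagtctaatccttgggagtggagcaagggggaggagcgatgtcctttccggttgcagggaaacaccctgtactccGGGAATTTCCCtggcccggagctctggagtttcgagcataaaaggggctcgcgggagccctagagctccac
Il6 (chr5:30012964-30013113, plus strand): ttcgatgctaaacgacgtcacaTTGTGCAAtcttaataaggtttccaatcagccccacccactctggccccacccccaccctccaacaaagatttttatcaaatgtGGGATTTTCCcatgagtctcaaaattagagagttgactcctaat
C3 (chr17:57228137-57228286, minus strand): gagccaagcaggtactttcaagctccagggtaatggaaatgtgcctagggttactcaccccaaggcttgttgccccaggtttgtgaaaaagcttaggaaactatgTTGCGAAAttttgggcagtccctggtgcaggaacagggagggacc
The Acta1 window, from the skeletal alpha-actin gene, holds its CArG box 73 bases and its TEAD motif 46 bases before the start. A letter match is only a description of these windows and was not tested as a binding site.

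Sequencing depth was similar in both groups. Imp2 siRNA libraries held 39746828, 37543221 and 37071000 counts, and Mock libraries held 37772710, 37481186 and 33841054. Mitochondrial transcripts took 3.31%, 6.69% and 5.41% of the counts in Imp2 siRNA libraries, against 3.85%, 6.63% and 6.06% in Mock libraries. Libraries of a group were not copies of each other: replicates 2 and 3 differed with a reduced chi-square over genes of 10.4 in the Imp2 siRNA group and 16.0 in the Mock group, where sampling noise alone gives about 1. Over all 12 RNA-seq libraries the first principal component (67.1% of the variance) was below 0 in the 4 RB160 libraries and above 0 in the 8 NA libraries, and within each prefix it was higher with Imp2 siRNA than in Mock. The second (18.8%) was below 0 in the 6 Imp2 siRNA libraries, with or without IL-17, and ran between -1.57 and 23.7 in the 6 Mock libraries. Because of the prefix, levels are given below per library in CPM (the read count relative to the library total, scaled by TMM), in the order of replicates 1 to 3, and the fold changes come from a model with a term for the prefix.

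Igf2bp2 itself (chr16:22059009-22163299) was measured at 24.6, 22.3 and 18.6 CPM in Imp2 siRNA libraries, against 134, 168 and 146 CPM in Mock libraries. All 3 Imp2 siRNA libraries lay below all 3 Mock libraries. The fitted log2 fold change, always Imp2 siRNA over Mock, was -2.77 ± 0.17 (SE; edgeR quasi-likelihood adjusted p = 2.71e-06). Igf2bp1, the closest relative, stood at 43.0, 48.6 and 50.2 CPM in Imp2 siRNA and 37.4, 47.3 and 50.5 CPM in Mock libraries, and its log2 fold change of 0.08 ± 0.06 did not pass the threshold. Igf2bp3, the third family member, was at 37.9, 45.4 and 40.6 CPM in Imp2 siRNA and 43.1, 62.0 and 59.6 CPM in Mock libraries and fell by 0.39 on the log2 scale.

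Of 13702 genes with enough counts to test, 2205 (16.1%) rose and 2241 (16.4%) fell at an adjusted p under 0.05. List counts below are to be read beside these shares. Most changes were small. The median absolute log2 fold change of the 4446 genes called was 0.41, with quartiles of 0.28 and 0.71, and 645 of them (14.5%) changed at least 2-fold, 264 upward and 381 downward. At least 4-fold changes were seen in 46 genes that rose and 77 that fell. The direction of the calls depended on level: among genes with a mean of at least 100 CPM, 546 rose and 275 fell, whereas among genes between 1 and 10 CPM 330 rose and 530 fell. The prefix term mattered for the count, since a model without it called 303 genes, all of which were also called with it.

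**Figure D1:**
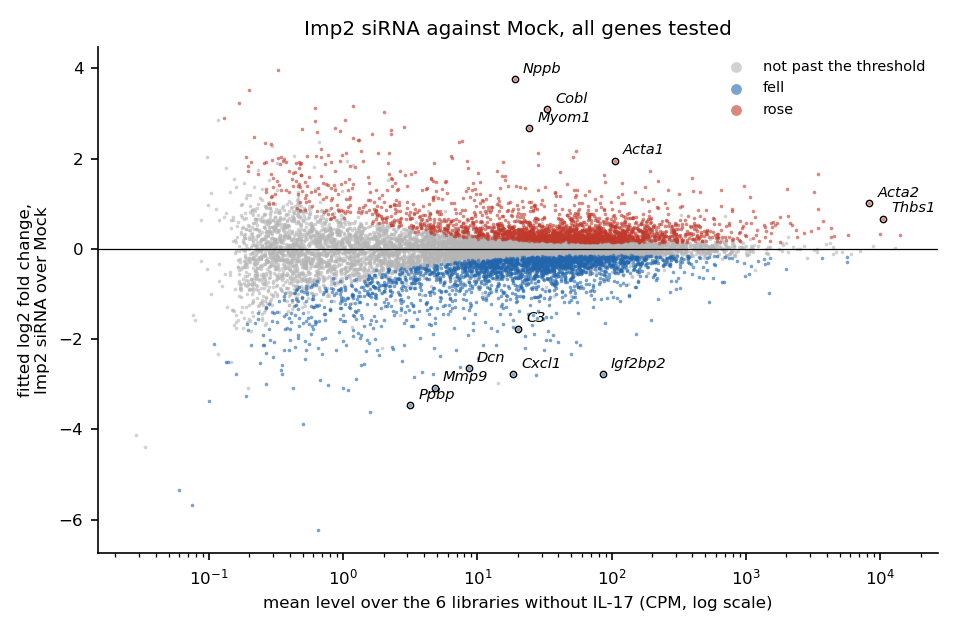
Each point is 1 of 13702 tested genes, placed by its mean level over the 6 libraries without IL-17 (CPM, log axis) and its fitted log2 fold change, Imp2 siRNA over Mock; red points rose, blue points fell and grey points did not pass the threshold. Igf2bp2 lies at -2.77, Nppb at 3.77 and Cxcl1 at -2.77, and at levels of 100 CPM and more the red points outnumber the blue, 546 to 275.

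Among genes averaging at least 5 CPM in either group the largest rise belonged to Nppb (chr4:147985788-147987205), which encodes B-type natriuretic peptide, a hormone of stretched heart muscle. It was measured at 17.9, 39.7 and 48.4 CPM in Imp2 siRNA libraries, against 1.74, 3.19 and 2.54 CPM in Mock libraries, a log2 fold change of 3.77 ± 0.14 (edgeR adjusted p = 8.47e-09). No Imp2 siRNA library came near any Mock library. Nppa, which encodes the atrial natriuretic peptide, stood at 0.756, 1.46 and 2.30 CPM in Imp2 siRNA and 0.0951, 0.328 and 0.299 CPM in Mock libraries and rose by 2.69 ± 0.39, at levels of few counts. Among genes of the sarcomere, the contractile unit of striated muscle, Myom1 (an M-band protein) was at 23.8, 49.5 and 52.9 CPM in Imp2 siRNA and 5.47, 7.45 and 5.91 CPM in Mock libraries. Myom1 rose by 2.67 ± 0.32, Neb (nebulin, a thin-filament protein) by 1.91 ± 0.20 and Acta1 by 1.96 ± 0.28. Acta1 was at 89.8, 170.3 and 251 CPM in Imp2 siRNA and 31.9, 41.8 and 48.8 CPM in Mock libraries, without overlap. Of the 11 tested members of the sarcomere and natriuretic peptide list 8 rose and none fell, with a median log2 fold change of 0.89, beside 16.1% and 16.4% and a median of 0.00 over all genes. Tnnt2 (cardiac troponin T), Tnnc1 and Myl4 did not pass, with log2 fold changes of 0.65, 0.31 and -0.13. Actc1, the cardiac actin, had 0 counts in all 6 libraries.

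Genes of smooth muscle contraction rose together. Acta2 (chr19:34241090-34255336), the smooth muscle alpha-actin, was measured at 7408, 12815 and 13024 CPM in Imp2 siRNA libraries, against 3775, 6465 and 6224 CPM in Mock libraries, and rose by 1.01 ± 0.08 on the log2 scale (edgeR adjusted p = 1.23e-06). Cnn1, the calponin that binds actin and myosin, was at 569, 1769 and 1873 CPM in Imp2 siRNA and 219.7, 696 and 696 CPM in Mock libraries and rose by 1.38 ± 0.07. Its RB160 library with the siRNA lay below the NA libraries of the Mock group, so that the groups overlap unless the prefix is held fixed, and the log2 ratio was 1.37 within RB160 and 1.39 within NA. Lmod1, a leiomodin that nucleates actin filaments, was at 146, 289.5 and 336 CPM in Imp2 siRNA and 69.5, 114 and 104 CPM in Mock libraries, a rise of 1.36 ± 0.14. Actg2, the enteric gamma-actin, rose by 1.30 ± 0.07 and Myh11, the smooth muscle myosin heavy chain, by 2.64 ± 0.37 from levels of at most 1.02 CPM in Mock libraries. In the whole list 13 of 15 tested members rose and none fell (median 0.89). Each of the 13 moved the same way within both prefixes, but so did 4408 of all 4446 called genes. Mylk, the myosin light chain kinase, and Des, the filament protein desmin, did not pass, with -0.04 ± 0.25 and 0.22 ± 0.23. The actin genes are near-identical copies of each other, and how reads shared between them were counted is not stated, so their separate values are uncertain.

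The cytoskeletal targets of SRF and MRTF moved less, but nearly all moved. Srf itself was at 88.2, 177 and 186 CPM in Imp2 siRNA and 63.7, 112 and 117 CPM in Mock libraries and rose by 0.60 ± 0.08. Fhl1, a LIM-domain protein of the contractile apparatus, rose by 1.14 ± 0.06, Filip1l, which interacts with filamin A, by 0.92 ± 0.08, Flna, the actin crosslinker filamin A, by 0.61 ± 0.06 and Vcl, the focal adhesion protein vinculin, by 0.56 ± 0.09. Of 16 tested members 15 rose (median 0.55). The exception was Actg1, the cytoplasmic gamma-actin, which fell by 0.28 on the log2 scale, while the cytoplasmic beta-actin Actb rose by 0.30, and the Actg1 call was lost without replicate 3 of the Imp2 siRNA group. A CArG box lay in the 300-base RefSeq window (250 bases before to 50 after the start) of 7 of the 13 list members that have a window (53.8%), against 1.6% of tested genes with a window. The share was 3.73% among genes that rose (64 of 1717), 1.29% among genes that fell (22 of 1702) and 1.15% among the others (81 of 7017). The CArG box was searched on both strands as CCWWWWWWGG, where W is A or T, with no mismatch allowed. Near matches, such as ccctatatgg in the Acta2 stretch printed above, were therefore missed. Genes whose windows are not in the table, such as Tagln and Actg2, were not counted. In the smooth muscle contractile list, with members tested or not, 1 of 12 windows held an exact CArG box (8.33%). A gene can be counted as an SRF target because it holds the box, so a high share may be built into the SRF list.

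Targets of YAP and TEAD, which respond to cell tension and density, also rose as a list, 12 of 15 with none falling and a median of 0.54. Ccn2, the connective tissue growth factor, was measured at 2351, 6275 and 6689 CPM in Imp2 siRNA libraries, against 518, 2648 and 2251 CPM in Mock libraries, a rise of 1.66 ± 0.21 (edgeR adjusted p = 0.000501). The RB160 pair of libraries stood lower than the NA pairs in both groups, and the ratio was larger in RB160 (2.18) than in NA (1.41). Ankrd1, an ankyrin repeat protein induced by stretch, was at 357, 723 and 832 CPM in Imp2 siRNA and 145, 329 and 326 CPM in Mock libraries and rose by 1.26 ± 0.08. F3, the tissue factor that starts coagulation, rose by 1.29 ± 0.10, Gadd45b by 1.02 ± 0.06 and Ccn1, a matricellular ligand of integrins, by 0.85 ± 0.07. Axl, a receptor tyrosine kinase, did not pass (-0.19 ± 0.08), and neither did Crim1 and Ptpn14. The TEAD motif GGAATG lay in the windows of 8 of 11 list members (72.7%) and of 14.5% of tested genes. A high share may be built into this list too. Over all tested genes with a window the share was 17.5% among those that rose, 14.3% among those that fell and 13.9% among the others. The motif was seen on either strand in the Nppb, Acta2, Ankrd1 and Ccn1 windows printed above.

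Several of the largest rises belonged to genes outside these lists. Cobl, an actin nucleator, was at 54.5, 51.0 and 71.5 CPM in Imp2 siRNA and 10.7, 5.02 and 5.23 CPM in Mock libraries and rose by 3.10 ± 0.33. Siglecg, a sialic acid receptor known from B cells, was at 30.6, 102 and 134 CPM in Imp2 siRNA and 6.90, 24.8 and 26.8 CPM in Mock libraries and rose by 2.17 ± 0.13. Sorbs2, an adaptor of actin structures, rose by 2.13 ± 0.30, and Lims2, a LIM protein of integrin adhesions, by 2.03 ± 0.22. Trac, the constant segment of the T cell receptor alpha chain, rose by 2.02 ± 0.16 from low levels (5.39, 12.2 and 13.6 CPM in Imp2 siRNA, 1.52, 2.92 and 3.14 CPM in Mock). Ptprz1, a receptor phosphatase, rose by 1.95 ± 0.13. Fgf13, an intracellular relative of the fibroblast growth factors, was at 0.520, 17.6 and 18.7 CPM in Imp2 siRNA and 0.143, 3.19 and 3.70 CPM in Mock libraries, a rise of 2.36 ± 0.15 that rests on the NA libraries, since both RB160 values are low.

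**Figure D2:**
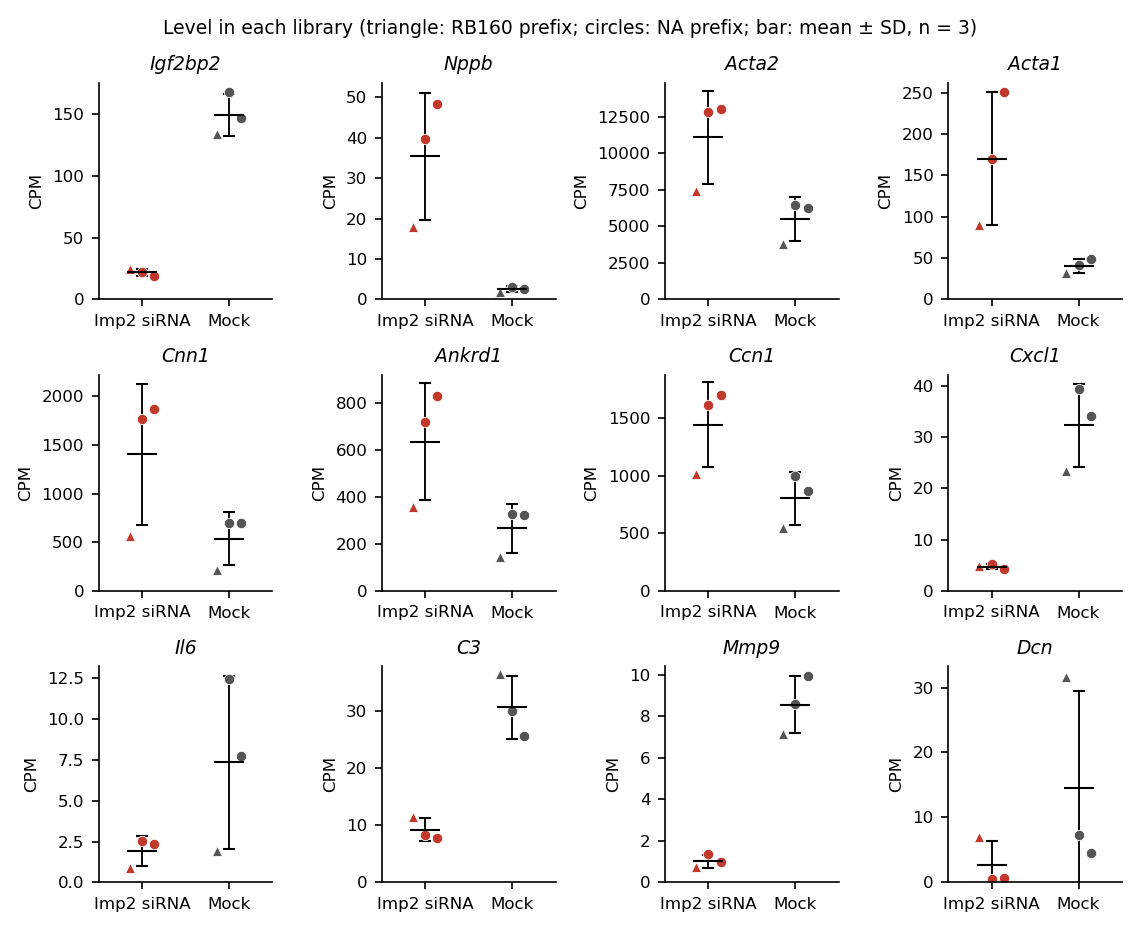
CPM of 12 genes in each library, Imp2 siRNA at left and Mock at right, with triangles for RB160, circles for NA and bars for mean ± SD (n = 3 each; the lower error bar of Dcn is cut at 0). Igf2bp2, Cxcl1, C3 and Mmp9 lie lower in all 3 Imp2 siRNA libraries than in any Mock library, and Nppb, Acta2, Acta1, Ankrd1 and Ccn1 lie higher in all 3.

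Adhesion receptors and the basement membrane, to which contractile cells are anchored, changed in part. The integrin Itga5, the fibronectin receptor subunit (chr15:103344289-103366763), was at 1198, 3586 and 3909 CPM in Imp2 siRNA and 492, 1551 and 1405 CPM in Mock libraries and rose by 1.32 ± 0.08 (edgeR adjusted p = 1.21e-07). Itga7, a laminin receptor of muscle, rose by 1.14 ± 0.16, and Itga1, Itga11 and Itgb1 by 0.78, 0.62 and 0.40. Only Itgb8 fell, by 1.85 on the log2 scale and from a level of at most 2.26 CPM, so that 5 of 16 integrin genes rose and 1 fell. The collagen IV chains Col4a1 and Col4a2, which form the basement membrane network, rose by 0.73 ± 0.07 and 0.71 ± 0.07, whereas Col15a1 fell by 1.31, with 2.86, 4.18 and 4.14 CPM in Imp2 siRNA and 9.44, 9.88 and 7.91 CPM in Mock libraries. Among basement membrane genes 6 of 16 rose and 3 fell. The integrin and basement membrane counts stand beside 16.1% of all tested genes that rose and 16.4% that fell, and the basement membrane falls were near that share. The fibrillar collagens went different ways: Col1a1 rose by 0.32 ± 0.07 and Col5a1 by 0.52, while Col3a1 fell by 0.72, with 578, 482 and 448 CPM in Imp2 siRNA and 1009.6, 803 and 689 CPM in Mock libraries.

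Chemokines were lower in the Imp2 siRNA libraries. Cxcl1 (chr5:90891241-90893115), which draws neutrophils, was measured at 4.80, 5.23 and 4.2 CPM in Imp2 siRNA libraries, against 23.5, 39.3 and 34.1 CPM in Mock libraries. It fell by 2.77 on the log2 scale with an SE of 0.30 (edgeR adjusted p = 0.000242), and the groups did not overlap. Ccl2, which draws monocytes, was at 24.4, 23.3 and 15.1 CPM in Imp2 siRNA and 53.3, 119 and 112 CPM in Mock libraries and fell by 2.13. Ccl7, another monocyte chemokine, fell by 2.07, and Ppbp, a CXC chemokine, by 3.46, with 0.378, 0.585 and 0.437 CPM in Imp2 siRNA and 1.43, 8.22 and 7.94 CPM in Mock libraries. Cx3cl1, the membrane-bound fractalkine, fell by 1.15, Ccl9 by 1.27 and Cxcl14 by 1.92. The Cxcl14 call was lost when the 6 libraries without IL-17 were fitted alone. In all, 7 of 13 tested chemokines fell and none rose (median -1.27), and the members that did not pass included Cxcl12, which holds stem and lymphoid cells, at 0.24 ± 0.21. Kappa B motifs were present in the windows of 5 of the 10 chemokine genes with a window and in 12.6% of tested genes. These 10 come from all 16 listed chemokines, of which 13 were tested. A high share may be built into this list as well. Over all tested genes with a window the share was 14.5% among those that fell, 12.1% among those that rose and 12.2% among the others.

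Of 23 known targets of IL-17 that were tested, in cells given no IL-17, 10 fell, 2 rose and 11 did not pass (median -1.25), and with each library left out in turn 7 to 13 fell. C3, the central complement protein (chr17:57203970-57228136), was at 11.5, 8.30 and 7.84 CPM in Imp2 siRNA and 36.4, 29.9 and 25.5 CPM in Mock libraries and fell by 1.77 ± 0.28. Il6 was at 0.875, 2.54 and 2.33 CPM in Imp2 siRNA and 1.90, 12.5 and 7.71 CPM in Mock libraries and fell by 1.89 ± 0.60 (edgeR adjusted p = 0.0452). The Il6 call was lost when any 1 of 5 of the 6 libraries compared, or any 1 of 4 of the libraries with IL-17 in the same fit, was left out, with a log2 fold change between -2.37 and -1.35 over the settings. Cebpd, a C/EBP factor induced by IL-17, fell by 1.5, while Cebpb did not pass (-0.19 ± 0.13). The Cebpd call was lost without replicate 3 of the Imp2 siRNA group, and when the 6 libraries without IL-17 were fitted alone. The members that rose were Csf3, the granulocyte colony-stimulating factor, and Tnfaip3, the ubiquitin-editing enzyme A20 that restrains NF-kB. Csf3 was at 0.969, 2.02 and 3.38 CPM in Imp2 siRNA and 0.0714, 0.218 and 0.418 CPM in Mock libraries and rose by 3.17 ± 0.35, and Tnfaip3 was at 42.7, 107 and 107 CPM in Imp2 siRNA and 21.1, 62.5 and 61.1 CPM in Mock libraries and rose by 0.86 ± 0.10. Lcn2, the siderophore-binding lipocalin, did not pass in spite of a log2 fold change of -2.96, and in RB160 it was near 0 in both groups (0.0709 CPM in Imp2 siRNA, 0.143 CPM in Mock).

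Acute phase, complement and serpin genes, many of them made in the liver and in stimulated fibroblasts, fell in 8 of 13 cases and rose in none (median -1.77). Serpina3g, a serine protease inhibitor, was at 15.5, 3.68 and 2.80 CPM in Imp2 siRNA and 94.6, 24.2 and 22.2 CPM in Mock libraries and fell by 2.80. Cp, the copper carrier ceruloplasmin, was at 5.67, 4.09 and 2.95 CPM in Imp2 siRNA and 16.0, 21.0 and 16.2 CPM in Mock libraries and fell by 2.13. For both, no Imp2 siRNA value reached the Mock value of the same prefix. Serpina3n fell by 3.60, but its call was lost without any 1 of 3 libraries. Serpina3 genes form a cluster of near-identical copies. How reads shared between them were counted is not stated, so their separate values are uncertain. The C/EBP motif TTGCNNAA lay in the windows of 7 of 9 acute phase genes with a window (77.8%), against 9.8% of tested genes. These 9 come from all 17 listed genes, of which 13 were tested. A high share may be built into this list too. Over all tested genes with a window the share was 11.2% among those that fell, 8.44% among those that rose and 9.8% among the others.

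Genes of the NF-kB pathway itself changed in both directions. Bcl3, an IkB family protein that binds NF-kB in the nucleus, was at 6.38, 9.88 and 7.52 CPM in Imp2 siRNA and 14.5, 24.2 and 26.3 CPM in Mock libraries and fell by 1.43 ± 0.17. The non-canonical subunit Relb fell by 0.65, its partner Nfkb2, the precursor of p52, by 0.58, Nfkbie (IkB epsilon) by 0.83, and the adaptors Traf1 and Tnip3 by 1.08 and 1.97. Rela rose by 0.19 ± 0.05 and the kinase subunits Ikbkb, Ikbkg and Chuk by 0.20 to 0.28, whereas the subunit Rel fell by 0.28 and Nfkbia, the inhibitor IkB alpha, by 0.23. The Rela call was lost without either RB160 library and in the NA libraries alone, that of Ikbkb without replicate 3 of the Imp2 siRNA group, that of Chuk without replicate 2 of the Imp2 siRNA group or replicate 1 of the Mock group, and that of Rel without any 1 of 4 of the 6 libraries. Over the list 11 of 21 fell and 5 rose, or 3 without replicate 1 of the Mock group. Of the cytokine receptors and IL-17 signalling genes 9 of 22 fell and 6 rose, or 3 without replicate 3 of the Imp2 siRNA group. Il17ra, the IL-17 receptor chain, rose by 0.22 ± 0.06 and its adaptor Traf3ip2 by 0.26 ± 0.08, both calls lost without replicate 3 of the Imp2 siRNA group. The Traf3ip2 call was also lost without replicate 2 of that group, without replicate 1 or 3 of the Mock group and in the NA libraries alone. Traf6 rose too, but kept its call in 11 of 20 settings. Receptors of the IL-6 family fell, among them Il6st (gp130) by 0.72, Lifr by 0.93 and Osmr by 0.85, and Il1r1, the IL-1 receptor, fell by 1.47. Tnfsf11 (RANKL), which drives osteoclasts, was at 0.733, 1.32 and 0.642 CPM in Imp2 siRNA and 1.47, 11.5 and 7.53 CPM in Mock libraries and fell by 2.72, while its decoy receptor Tnfrsf11b rose by 0.86 ± 0.08.

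**Figure D3:**
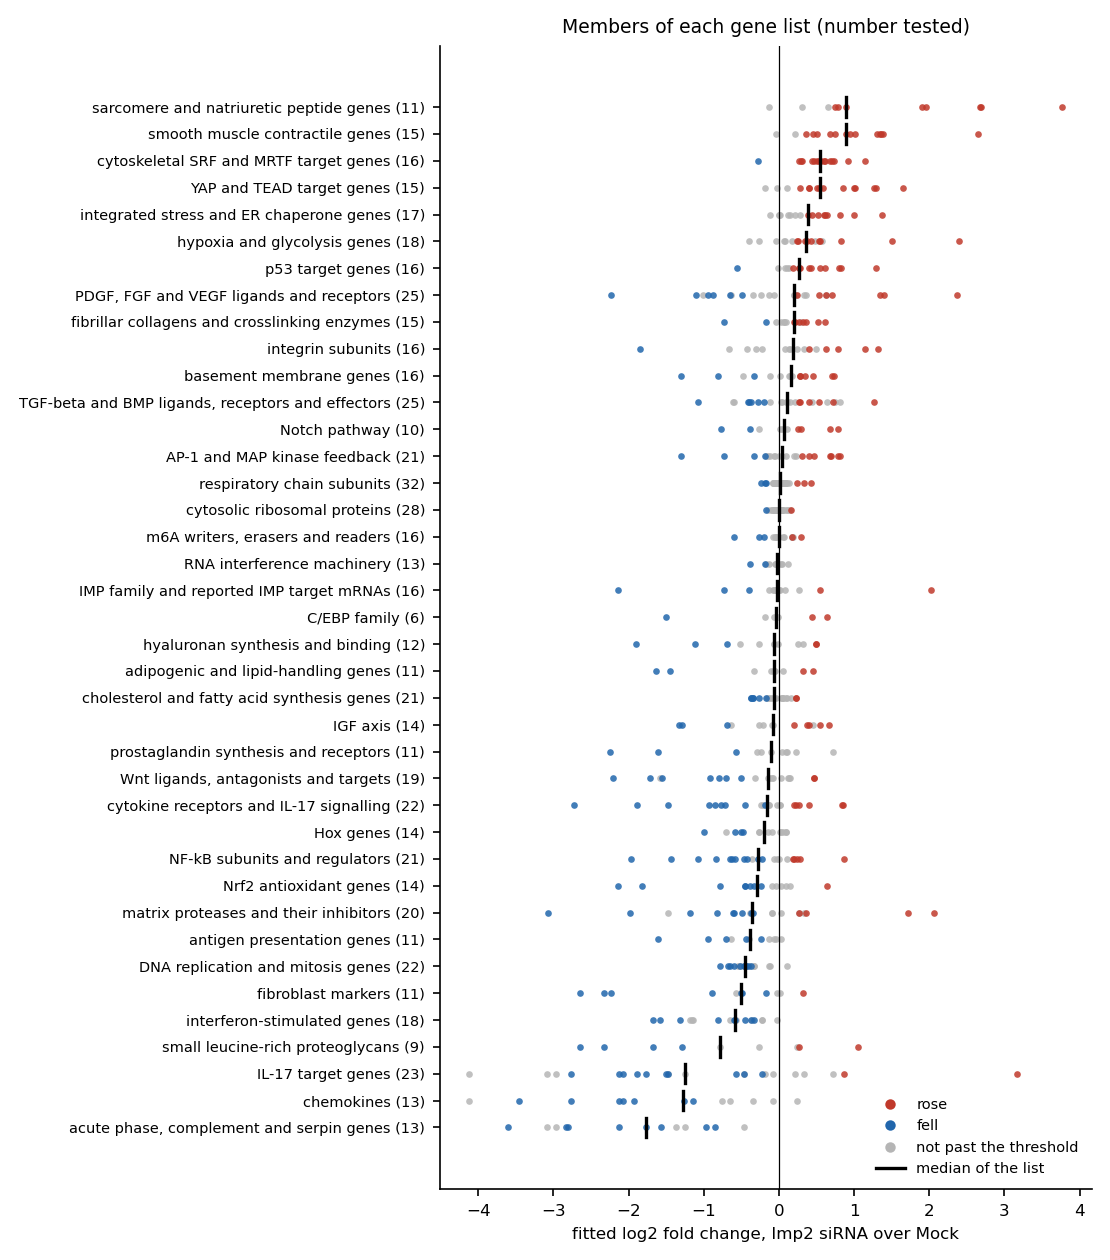
Each row is a list of genes with its number of tested members, ordered by its median log2 fold change (black bar); points are the members' fitted log2 fold changes, Imp2 siRNA over Mock, coloured red where they rose, blue where they fell and grey where they did not pass. The medians of the contractile, sarcomere, SRF and YAP lists are 0.89, 0.89, 0.55 and 0.54, and the chemokine and acute phase lists have medians of -1.27 and -1.77.

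Most fibroblast identity genes fell, but the summed level of their list overlapped between the groups. It ran from 18700 to 23500 CPM in Imp2 siRNA and from 18000 to 21900 CPM in Mock libraries. Pdgfra, the PDGF receptor alpha, was at 26.0, 4.39 and 3.47 CPM in Imp2 siRNA and 116, 19.3 and 18.3 CPM in Mock libraries and fell by 2.23 ± 0.11 (edgeR adjusted p = 3.32e-08). Its level in RB160 was several times that in NA in both groups, so the groups overlap, and the log2 ratio was -2.12 within RB160 and -2.01 within NA. Dcn, the small proteoglycan decorin, was at 6.95, 0.556 and 0.612 CPM in Imp2 siRNA and 31.7, 7.24 and 4.51 CPM in Mock libraries and fell by 2.65. Prrx1, a mesenchymal transcription factor, fell by 0.89 and all its Imp2 siRNA values lay below its Mock values. Vim (vimentin), the filament protein of mesenchymal cells, was 3371, 3156 and 3053 CPM in Imp2 siRNA and 3395, 3061 and 3272 CPM in Mock libraries and did not differ beyond the spread. In the marker list 7 of 11 fell and Col1a1 rose, while Thy1 and S100a4, like Vim, did not pass. The fall of Col1a2 kept its call in 7 of 20 settings. Among the small proteoglycans 4 of 9 fell and 2 rose, Prelp by 1.06 ± 0.14 and Bgn by 0.27, but without either RB160 library 2 fell, and in the NA libraries alone 1 fell. There Lum was at most 0.328 CPM and Aspn at most 2.89 CPM. In bulk samples, fewer cells of a type and less RNA per cell cannot be told apart.

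Further large falls outside these lists were those of secreted and membrane proteins. Penk, the precursor of the enkephalins, was at 2.36, 2.31 and 1.46 CPM in Imp2 siRNA and 10.3, 14.1 and 14.2 CPM in Mock libraries and fell by 2.62 ± 0.19, without overlap. Anpep, the aminopeptidase CD13, was at 8.06, 1.32 and 0.875 CPM in Imp2 siRNA and 35.0, 7.89 and 7.68 CPM in Mock libraries and fell by 2.43. Ptn, the growth factor pleiotrophin, fell by 2.36 and its Imp2 siRNA values lay below its Mock values. Slitrk6, a neuronal membrane protein, fell by 2.77 and was at 0.0946 CPM in Imp2 siRNA and 0.547 CPM in Mock in the RB160 libraries, so that its fall too rests mostly on the NA libraries.

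Matrix proteases and their inhibitors fell in 9 of 20 cases and rose in 4, beside 16.4% and 16.1% of all tested genes. The falls included the inhibitor Timp1, which kept its call in 12 of 20 settings, and Mmp10, which kept it in 7. With each library left out in turn 6 to 8 fell and 3 to 4 rose. Mmp9, gelatinase B, was at 0.733, 1.35 and 0.992 CPM in Imp2 siRNA and 7.16, 8.57 and 9.95 CPM in Mock libraries and fell by 3.08, with no overlap. Adamts12 rose by 1.71 ± 0.11, with 60.1, 63.4 and 66.4 CPM in Imp2 siRNA and 22.7, 18.9 and 16.5 CPM in Mock libraries, and the membrane protease Mmp17 rose by 2.06 ± 0.14. Sfrp1, a secreted Wnt antagonist, was at 11.0, 7.66 and 5.83 CPM in Imp2 siRNA and 44.6, 37.1 and 29.7 CPM in Mock libraries and fell by 2.20. Dkk2, another Wnt antagonist, fell by 1.56, and Axin2, a common target of Wnt signalling, by 0.50, so that 7 of 19 Wnt genes fell and 2 rose (1 without replicate 3 of the Imp2 siRNA group). Interferon-stimulated genes fell in 9 of 18 cases (6 without either RB160 library) and rose in none, among them Gbp2 by 1.58. Of 11 antigen presentation genes 5 fell (3 without replicate 1 of the Mock group), such as Erap1 by 0.95 and Tap1 by 0.71. Antioxidant targets of Nrf2 fell in 8 of 14 cases, with Gsta4 at -2.14 and the extracellular dismutase Sod3 at -1.83, whereas Hmox1, the heme oxygenase, rose by 0.64 ± 0.08.

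Genes of DNA replication fell modestly. Mcm5, a subunit of the replicative helicase, was at 99.8, 58.8 and 58.0 CPM in Imp2 siRNA and 146, 81.4 and 116 CPM in Mock libraries and fell by 0.68 ± 0.12, and Tyms, which makes thymidylate, fell by 0.65. The 6 genes of the MCM helicase (Mcm2 to Mcm7) all fell, by 0.37 to 0.68, and 10 of 22 replication and mitosis genes fell with none rising (median -0.45), or 16 without replicate 2 of the Mock group. The mitotic cyclin Ccnb2 fell by 0.79, a call lost without either RB160 library or replicate 3 of the Imp2 siRNA group and in the NA libraries alone, and Plk1, Aurkb and Mki67 did not pass with -0.45, -0.52 and -0.53. Targets of p53 rose in 10 of 16 cases: Cdkn1a, the cell cycle inhibitor p21, rose by 0.54 ± 0.05, Pmaip1 (Noxa) by 1.30 ± 0.09 and Bbc3 (Puma) by 0.80. Only Sesn1 fell. In the integrated stress response 9 of 17 rose and none fell: Trib3 was at 40.1, 46.5 and 50.4 CPM in Imp2 siRNA and 21.6, 16.6 and 14.4 CPM in Mock libraries, and Atf4, its transcription factor, rose by 0.51 ± 0.07. The chaperone Hspa5, a marker of protein unfolding in the ER, was at 0.00 ± 0.12. Hypoxia and glycolysis genes rose in 10 of 18 cases, led by Ankrd37 at 2.40 and the oxygen sensor Egln3 at 1.51.

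Other lists held few calls or calls in both directions, to be read beside the 16.1% of all tested genes that rose and the 16.4% that fell. Cytosolic ribosomal protein genes had 1 rise (Rplp0) and 1 fall (Rpl7) among 28, with a median of 0.00 and a largest absolute value of 0.17, and with each library left out in turn 0 to 2 rose and 0 to 2 fell, with neither call left without either RB160 library. The 32 respiratory chain genes had 3 rises and 3 falls, and 1 fall without either RB160 library or replicate 3 of the Imp2 siRNA group. Of 16 genes of m6A writing, erasing and reading 2 rose and 3 fell, and without either RB160 library 1 rose. Mettl3, the catalytic subunit of the writer, was at 24.1, 22.6 and 19.5 CPM in Imp2 siRNA and 35.1, 34.4 and 31.1 CPM in Mock libraries and fell by 0.60 ± 0.07, and its partner Mettl14 stood at 0.00. Among 16 tested genes of the IMP family and mRNAs reported as IMP targets 2 rose, Lims2 and Trim54, and 3 fell, Igf2bp3, H19 and Hmga2. H19, an imprinted non-coding RNA, was at 2.48, 0.380 and 0.146 CPM in Imp2 siRNA and 11.5, 1.31 and 1.19 CPM in Mock libraries and fell by 2.14 ± 0.30. Hmga2, a chromatin protein of dividing mesenchyme, was at 496, 552 and 474 CPM in Imp2 siRNA and 588, 1014 and 967 CPM in Mock libraries and fell by 0.73 ± 0.23, a call that was lost when any 1 of 5 of the 6 libraries was left out, all but the Mock library of RB160. Igf2, Ccnd1 and Myc, long named as IMP family targets, did not pass, with -0.08, 0.01 and 0.26. Among 12 genes of hyaluronan synthesis and binding 3 fell, Vcan, a large proteoglycan, by 1.11, the synthase Has1 by 1.90 and Cemip2 (Tmem2 in the files) by 0.69. Hapln4 and Hyal1 rose by 0.49 and 0.50, and both calls were lost without replicate 2 of the Imp2 siRNA group or replicate 3 of the Mock group.

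Markers of other cell types were in part called and in part at low levels or absent. The summed level of the macrophage list was 8.57 to 10.3 CPM in Imp2 siRNA and 8.11 to 14.8 CPM in Mock libraries, with none of 3 tested members called, and that of the skeletal muscle list was 0.851 to 2.04 CPM in Imp2 siRNA and 0.785 to 1.88 CPM in Mock libraries, with Myod1, Myf5 and Pax7 at 0 counts. The pericyte list summed to 307 to 571 CPM in Imp2 siRNA and 151 to 258 CPM in Mock libraries and all 3 tested members were called: Cspg4 rose by 1.22, while Rgs5 fell by 1.22 and Notch3 by 0.39. The epithelial list summed to 69.2 to 207 CPM in Imp2 siRNA and 41.7 to 125 CPM in Mock libraries, and of 4 tested members Krt8 and Krt19 rose by 1.72 and 0.73 and Cdh1 (E-cadherin) fell by 1.15, at no more than 1.47 CPM and with the call lost without either RB160 library or replicate 3 of the Imp2 siRNA group. The cardiac list summed to 0.473 to 1.96 CPM in Imp2 siRNA and 0.404 to 2.7 CPM in Mock libraries, with Hand2 lower by 1.44 on the log2 scale, a call lost without any 1 of the 4 NA libraries. The endothelial list summed to 0.614 to 1.34 CPM in Imp2 siRNA and 0.69 to 1.53 CPM in Mock libraries, with Cdh5 lower by 1.64, a call lost without replicate 1 or 3 of the Imp2 siRNA group or replicate 2 of the Mock group. Of the neural and cartilage lists Map2 and Col2a1 fell, by 0.74 and 0.64. Adipoq, which adipocytes express, had 0 counts. The part of these cells in the results was not tested.

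The same siRNA was compared in the 6 other libraries of the RNA-seq set, which received IL-17. There 2288 genes rose (16.7%) and 2270 fell (16.6%) with Imp2 siRNA against Mock. The comparisons share no library but come from 1 fit with a common estimate of the spread, and whether they came from the same transfections is not stated. Of the genes called without IL-17, 1820 rose in both and 1802 fell in both, and none were called in opposite directions. These shared calls were 81.5% of the genes called without IL-17 and 79.5% of those called with it. Log2 fold changes had a Pearson correlation of 0.834 across genes, which are not independent replicates. The difference of the siRNA effect between the presence and absence of IL-17 passed the edgeR threshold for 0 genes, with 141 at an unadjusted p under 0.05, and DESeq2 also called 0. Nppb rose by 3.24 with IL-17, Cxcl1 fell by 2.27 and Acta2 rose by 1.08.

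**Figure D4:**
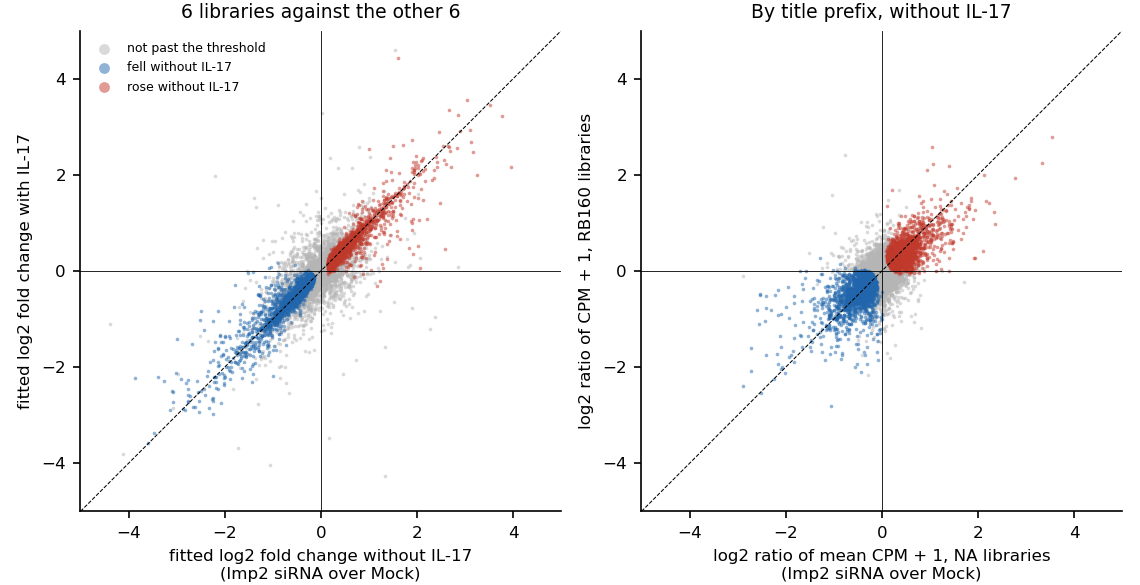
Left, log2 fold changes of Imp2 siRNA over Mock for each tested gene without IL-17 (x) and with IL-17 (y); right, log2 ratios of CPM + 1 without IL-17 in the NA libraries (x) and the RB160 libraries (y). Dashed lines mark equality, and red and blue points are genes that rose or fell without IL-17; the left cloud has a correlation of 0.834 and the right one 0.681 across genes.

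Values within each title prefix ran in the same direction for nearly all called genes. The calls came from a fit to these same libraries, so much of this agreement was set by the selection and is no separate support. The log2 ratios of RB160 (1 library a group) and NA (2 a group) had the same sign in 4408 of the 4446 genes called, and in 72.5% of all tested genes, with Pearson's r of 0.681 and Spearman's rho of 0.634 across genes. A test of the difference between the prefixes, added after the data were seen, passed for 156 genes, of which 47 were among those called. This test assumes that each single RB160 library varies like the others. Among them was Has2, a hyaluronan synthase, at -0.98 in NA and 0.82 in RB160. Myom1 and Ankrd37 rose in both but more in NA, by 0.81 and 1.36 on the log2 scale.

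**Figure D5:**
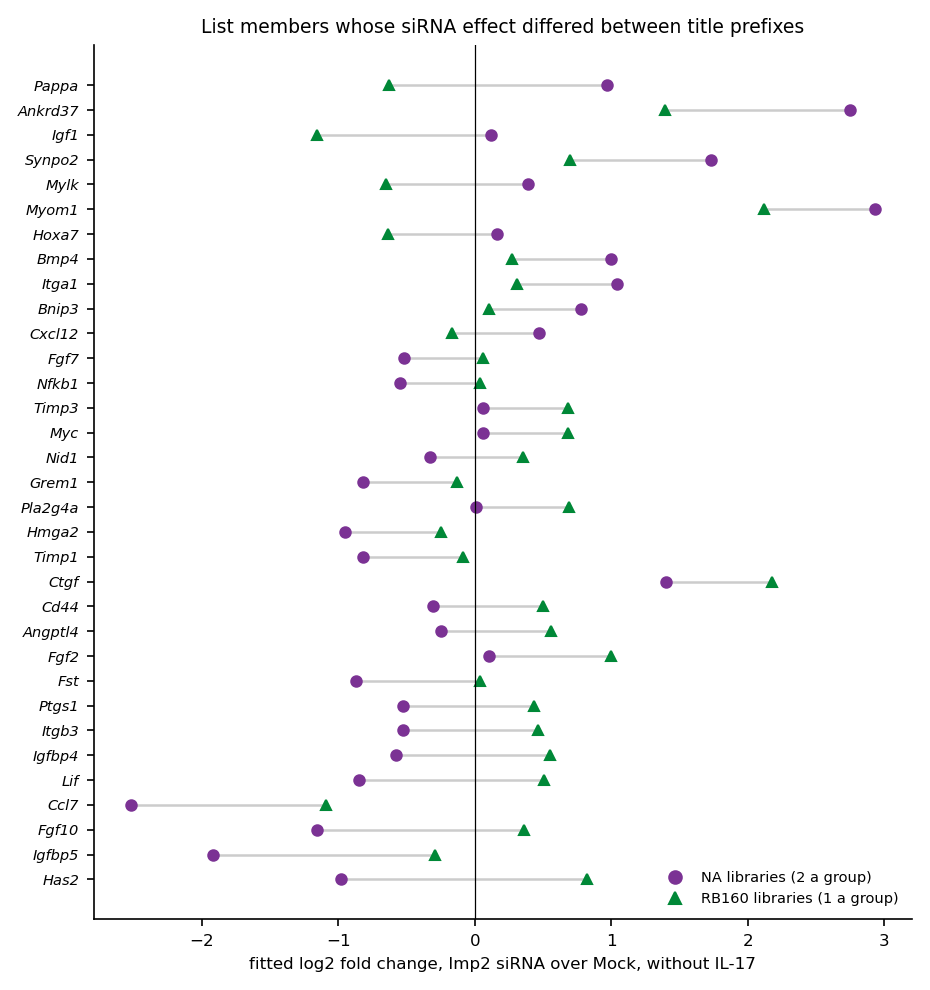
Fitted log2 fold changes (x axis), Imp2 siRNA over Mock without IL-17, in the NA libraries (circles, 2 a group) and the RB160 libraries (triangles, 1 a group) for 33 of the 35 list members whose siRNA effect differed between the prefixes. The grey line joins the values of a gene, and Has2 lies on both sides of 0.

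The authors' deposited table of RNA precipitated with IMP2 over IgG, from MEFs given IL-17 for 3 h, lists 5294 genes with a higher level in the precipitate. Of these 4721 were tested here, and 875 rose (18.5%) and 732 fell (15.5%), with a median log2 fold change of 0.015, beside 14.8% and 16.8% among the 8981 tested genes outside that table. In the authors' deposited table Igf2bp2 itself had a log2 enrichment of 1.94, Cxcl1 3.58, Acta2 2.79, Nppb 2.26 and Ccn2 2.30. Both kinds of change, the rise of Acta2 and the fall of Cxcl1, were thus seen in genes of the deposited table. The table is limited to genes with an enrichment, and it was made in cells given IL-17. The direction of the calls also depended on level, as given above. Genes inside and outside the table were not matched for level, so the shares cannot be tied to IMP2 binding.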

How the data were processed

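RNA from C57BL/6 MEFs was sequenced in 12 libraries, of which the 6 without IL-17 are described here. The authors deposited raw read counts per gene, whole numbers with a different total in each library, and these counts were used as deposited. Per the submitters' processing notes, mm10, CASAVA 1.4, STAR and DESeq2 were named, with no role or order, and the handling of strand and of reads shared by near-identical genes is not given in these sources. The authors' deposited RIP table gives, per the file headers, a log2 fold change of IMP2 over IgG, an adjusted p-value and a mean normalized signal, and its log2 values were used only to describe genes.

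Genes were kept by filterByExpr (13702 of 48709), scaled by TMM, and fitted with edgeR 4.0.16 (R 4.3.3) by a quasi-likelihood model with robust moderation over all 12 libraries and a term for title prefix. The contrast was Imp2 siRNA minus Mock, with Benjamini-Hochberg adjustment over all genes tested and a threshold of 0.05. SE is the absolute log2 fold change divided by the square root of F. CPM uses the TMM factors, and log2 ratios within a prefix add 1 CPM. DESeq2 1.42.0 was an alternative, among 19 settings. The difference between prefixes was chosen after seeing the data.

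Named genes were Igf2bp2, the 12 largest rises and 12 largest falls among called genes averaging 5 CPM or more in either group, and, from each gene list, up to 6 called members by size, those against its direction and its first 6 entries; other genes named were chosen after their values were seen. The members and gene lists were chosen with earlier results of these data known. Promoter windows are from RefSeq, GRCm38.p6 (532 of 723 list members have one), and no protein sequences were used here. Some genes stayed in every fit and count but are not reported here by name.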

Additional observations from a re-analysis of the deposited data

Results flagged for a closer look

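The effect of Imp2 siRNA against Mock was larger, smaller or opposite in the NA libraries than in the RB160 libraries for 35 list members, 33 of which are given here, by an edgeR test of the difference itself that was chosen after the data were seen. Each RB160 group is 1 library, assumed to vary like the others, and the labels do not explain the prefix, so the source of the differences was not tested. Differences are log2 values, the NA effect minus the RB160 effect.

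Among inflammatory and growth factor genes the difference was -1.43 for Ccl7, -1.36 for Lif, -0.59 for Nfkb1, -0.96 for Ptgs1, -0.69 for Pla2g4a, -1.51 for Fgf10, -0.89 for Fgf2, -0.58 for Fgf7 and 0.63 for Cxcl12. Ccl7 fell by both measures, with -2.52 in NA and -1.09 in RB160. The signs were opposite for Lif (-0.85 in NA, 0.51 in RB160), Fgf10 (-1.16, 0.36) and Ptgs1 (-0.53, 0.43). They were also opposite for Nfkb1, Fgf7 and Cxcl12. In the IGF axis the difference was -1.13 for Igfbp4, -1.63 for Igfbp5 and 1.28 for Igf1. For Pappa, the protease that releases IGF from its binding proteins, the difference was 1.6. Signs were opposite for Igfbp4 (-0.58 in NA, 0.55 in RB160), Igf1 (0.12, -1.16) and Pappa (0.97, -0.63).

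Among genes of the TGF-beta and BMP pathways the difference was -0.69 for Grem1, -0.91 for Fst and 0.73 for Bmp4. Among matrix and adhesion genes it was -1.8 for Has2, -0.81 for Cd44, -1 for Itgb3 and 0.72 for Itga1. It was -0.67 for Nid1, -0.73 for Timp1, -0.61 for Timp3 and -0.78 for Ccn2 (Ctgf). Signs were opposite for Has2 (-0.98 in NA, 0.82 in RB160), Cd44 (-0.31, 0.5) and Itgb3 (-0.53, 0.46). The same held for Nid1 (-0.33, 0.35) and Fst (-0.87, 0.04).

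For contractile and other genes the difference was 0.81 for Myom1, 1.04 for Mylk, 1.04 for Synpo2, 1.36 for Ankrd37 and 0.68 for Bnip3. It was -0.81 for Angptl4, -0.63 for Myc, -0.7 for Hmga2 and 0.79 for Hoxa7. Signs were opposite for Mylk (0.39 in NA, -0.65 in RB160), Angptl4 (-0.25, 0.56) and Hoxa7 (0.16, -0.64).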

How the results depend on the processing

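No paired analysis was possible because the numbers in the RNA-seq titles run on over the groups, so that the groups compared share no replicate number; the numbers 1 to 3 used here follow accession order and only name libraries. The prefix term was the choice that mattered most. Without it 303 genes were called (126 rose, 177 fell, 97 of them at least 2-fold), 13 list genes rose and 22 fell, 32 genes of the authors' RIP table rose and 75 fell, and 318 genes were called with IL-17. These fits hold the prefix difference in their spread.

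Leaving out 1 library at a time gave 3169 to 4647 called genes, and the genes of the authors' RIP table that fell numbered 483 to 766. Size factors of the RLE kind called 4451 genes, DESeq2 4437 (95.5% of the genes called were shared), no filter 4136, the 6 libraries alone 3929, the NA libraries alone 4172 and a model with separate cells by group and prefix 4582. That model called 1 gene for the difference of the siRNA effects with and without IL-17, and 0 were called in the other settings. Genes of the RIP table with an enrichment of at least 2 on the log2 scale numbered 454 that rose and 368 that fell. With a pseudocount of 0.1 CPM, the correlation of log2 ratios between prefixes was 0.593. Of 325 called list and named genes, 253 stayed called in every fit that left out 1 of the 6 libraries, and 72 lost the call at least once. Without the prefix term 38 stayed called. The sign turned in 1 of them, Hand2, in the model of separate cells (0.29).

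The depth of 33841054 to 39746828 counts leaves genes under 1 CPM with few counts: 14.7% of 1811 such genes were called, against 41.4% of 1984 genes at 100 CPM or more.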

Other observations

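Genes of the growth factor pathways changed in both directions. Their counts are to be read beside the 16.1% of all tested genes that rose and the 16.4% that fell. Among PDGF, FGF and VEGF genes 7 of 25 rose and 6 fell: the ligand Pdgfa rose by 0.71 ± 0.06, with 47.8, 79.4 and 78.6 CPM in Imp2 siRNA and 27.9, 48.6 and 50.5 CPM in Mock libraries, and Vegfa by 0.53 ± 0.10, while the receptor Pdgfra fell by 2.23 and Pdgfrb by 0.50. The ligands Fgf18 and Vegfd fell by 1.10 and 0.87, and no FGF or VEGF receptor of the list passed. Among 25 TGF-beta and BMP genes 6 rose and 6 fell, and the receptors Tgfbr1, Tgfbr2 and Tgfbr3 fell by 0.41, 0.40 and 1.08, while the ligand Tgfb2 rose by 0.54 and Tgfb1 fell by 0.37, a call lost without any 1 of 3 libraries. In the Notch pathway 4 of 10 rose (2 without replicate 1 of the Imp2 siRNA group or replicate 3 of the Mock group) and 2 fell, with the ligand Jag1 at 0.67 ± 0.08 and the receptor Notch1 at -0.77 ± 0.09. In the IGF axis 5 of 14 rose and 3 fell: Igfbp2 rose by 0.66 ± 0.09 without overlap, and Igfbp3 fell by 1.33, at 0.449, 0.439 and 0.467 CPM in Imp2 siRNA and 1.17, 1.12 and 1.10 CPM in Mock libraries.

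Immediate early genes went different ways: Fos fell by 1.31 and Egr1 by 0.74, while Fosb rose by 0.78 and the phosphatase Dusp1 by 0.68, so that 7 of 21 genes of the AP-1 and MAP kinase feedback list rose and 4 fell. Pparg, the master regulator of fat cells, was at 5.15, 1.08 and 0.671 CPM in Imp2 siRNA and 17.1, 2.62 and 2.57 CPM in Mock libraries and fell by 1.64. Of 11 adipogenic and lipid-handling genes 2 rose and 2 fell (1 fell without replicate 1 of the Imp2 siRNA group), shares near the 16.1% and 16.4% of all tested genes. Cholesterol and fatty acid synthesis genes had 2 rises and 6 falls among 21, none beyond 0.38, and no rise without replicate 3 of the Imp2 siRNA group or replicate 2 of the Mock group. Of 14 Hox genes 4 fell and none rose, but 1 fell without replicate 2 or 3 of the Imp2 siRNA group and 2 without replicate 2 or 3 of the Mock group. Of 13 genes of the RNA interference machinery 2 fell, Ago1 by 0.19 and Tnrc6c by 0.39, a share near the 16.4% of all genes, and none rose; without replicate 1 or 2 of the Imp2 siRNA group 1 fell. Of 11 prostaglandin genes 3 fell, among them Ptges, the inducible prostaglandin E synthase, by 0.57, while Ptgs2, the inducible cyclooxygenase, did not pass at 0.72 ± 0.29.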
